A study of Mus musculus with 12 samples.

Results

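The transcripts of 9 genes of arginine and creatine metabolism were followed in whole kidney tissue of 12 mice. The 9 genes were chosen by name for the enzymes they encode, with earlier results of these data known. Each had a value in every mouse in a table of 22053 protein-coding gene rows. The kidney is a main site at which citrulline from the blood is turned into arginine and at which arginine and glycine are joined to guanidinoacetate, the precursor of creatine, and both steps are known to take place mainly in proximal tubule cells. Arginine is also split by arginase to ornithine and urea, and is used by nitric oxide synthases. Ornithine in turn feeds either polyamine synthesis or the path to glutamate and proline.

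All mice were C57BL/6, were sampled at 16 weeks of age after 8 weeks on their diet, and fell into 3 groups of 4. Control mice received the same chow without adenine and weekly i.p. injections of PBS. CKD mice were fed a 0.2% adenine diet to induce CKD, and also received PBS. CKD+Fe mice were fed the adenine diet and were injected i.p. each week with 0.5 g/kg of iron dextran. The comparisons address what the adenine diet does to the kidney and whether iron dextran alters it, and no iron-treated group without adenine was analysed here. Each mouse gave 1 library and is called here by the number in its label. The labels give no sex and no batch. Values are FPKM, in which fragment numbers are divided by transcript length and by the mapped total of the library. The depth in reads is unknown, and relative depth ran from 0.677 to 1.0 among mice.

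3 libraries stood apart within their groups by the quality weights that limma estimated across all genes, which were 0.30 for control mouse 042301, 0.20 for CKD mouse 110310 and 0.38 for CKD+Fe mouse 042702, as compared with 0.77 to 3.66 in the other 9. In control mouse 042301 the summed level of 9 papilla and urothelium markers was 671 FPKM, as compared with 67.6 to 149 FPKM in the other controls. 1 gene, Fxyd4, made up 622 FPKM of that sum. The mean log2 level of the 9 was 3.14, as compared with 1.12 to 2.55 in the other controls and up to 3.00 in CKD+Fe mice. The 12 endothelial markers of mouse 042301 summed to 583 FPKM, as compared with 254 to 284 FPKM in the other controls. The part of these differences in the results was not tested, and the members' fold changes are given with and without the 3 libraries. All 18 proximal tubule markers were detected in control kidneys.

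In control kidneys the 9 genes spanned a wide range of length-corrected levels. Ass1, which joins citrulline and aspartate, had the highest mean at 851 ± 234 FPKM (SD, n = 4), followed by Odc1, which makes the polyamine putrescine from ornithine, at 487 ± 190 FPKM and by Gatm, which makes guanidinoacetate, at 361 ± 75.4 FPKM. The ranges of these neighbours overlapped. Asl, Ddah1 and Oat followed, again with overlapping ranges, and Gamt, Arg2 and Nos3 came last in separate ranges. In CKD kidneys the order changed: Oat, which turns ornithine toward glutamate and proline, had the highest mean at 147 ± 15.1 FPKM (SD, n = 4), and the first 7 genes in the order, down to Arg2, each overlapped the next in range. Gamt and Nos3 lay below. In CKD+Fe kidneys Ass1 at 177 ± 37.8 FPKM and Oat at 153 ± 18.8 FPKM (SD, n = 4) came first and overlapped.

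**Figure D1:**
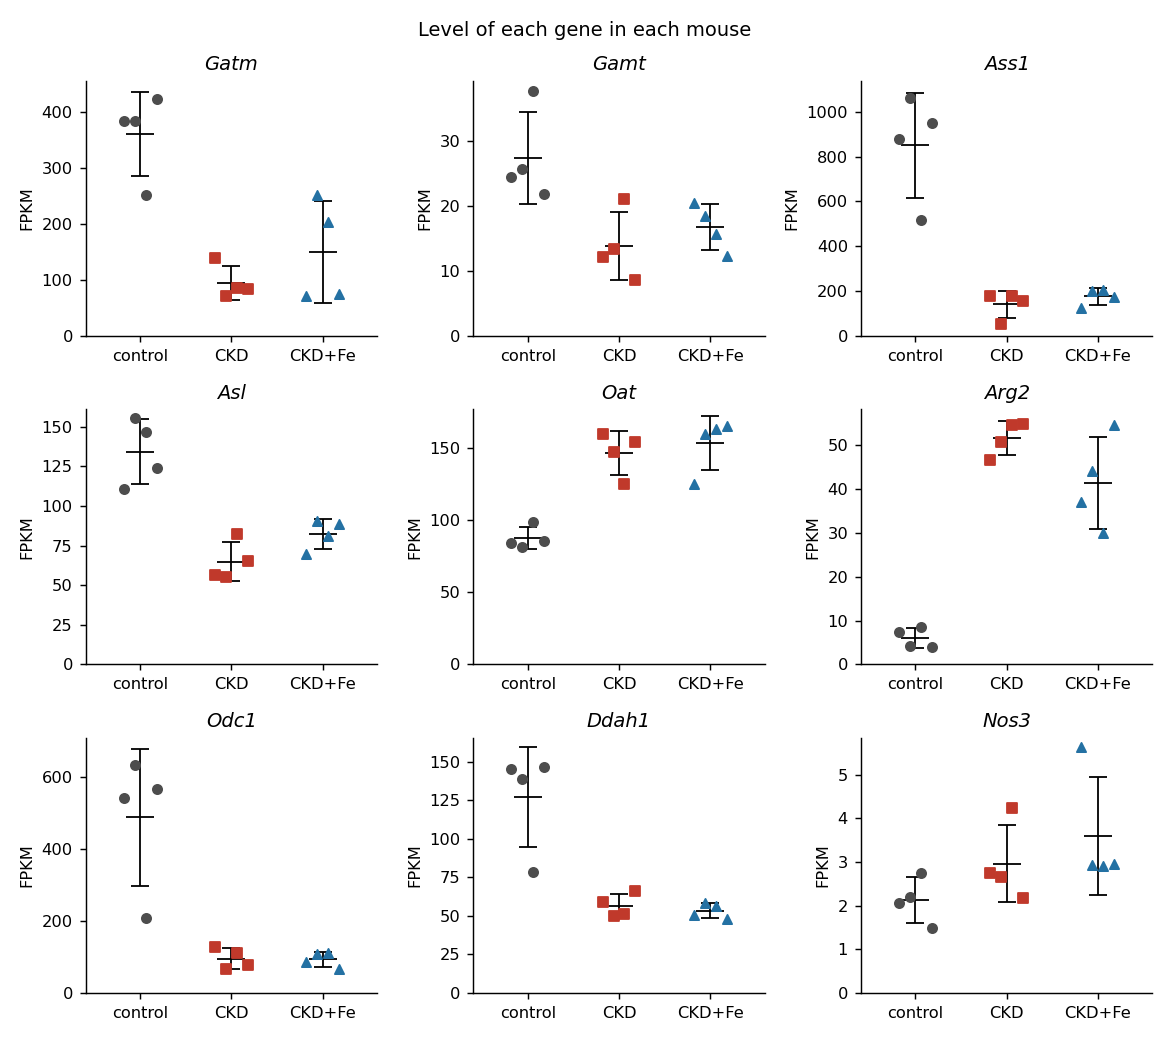
Level of each of the 9 genes in FPKM on a linear axis from 0, with 1 point per mouse and black lines for the mean and SD of the 4 mice in each group. The CKD and CKD+Fe points of Ass1 (54.0 to 207 FPKM) lie below all control points (519 to 1061 FPKM), and those of Arg2 (29.9 to 54.6 FPKM) lie above all control points (4.06 to 8.57 FPKM).

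On GRCm38, Ass1 lies at chr2:31470207-31520672 and Asl at chr5:130011258-130029247. The creatine genes Gatm and Gamt lie at chr2:122594467-122611303 and chr10:80258151-80261012. Arg2 is at chr12:79130777-79156301, Odc1 at chr12:17544873-17551502 and Oat at chr7:132557478-132576398, inside the gene Fgfr2 without shared exon bases. Ddah1 is at chr3:145758675-145894277 and Nos3 at chr5:24364810-24384474. FPKM cover the whole transcript of each gene, so no value belongs to a single exon.

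The promoters of 4 genes are shown because Ass1, Odc1 and Gatm were the highest control levels and fell together, while Oat did not fall. They run from 250 bases before to 50 bases after the transcription start in RefSeq on GRCm38.p6, and capitals mark matches, on either strand, to CCAAT (the CCAAT box), GGGCGG (the GC box) or CACGTG (an E box). The Ass1 window is chr2:31470020-31470319 on the plus strand, that of Odc1 is chr12:17544623-17544922 on the plus strand, that of Gatm is chr2:122611228-122611527 on the minus strand and that of Oat is chr7:132576349-132576648 on the minus strand.
Ass1: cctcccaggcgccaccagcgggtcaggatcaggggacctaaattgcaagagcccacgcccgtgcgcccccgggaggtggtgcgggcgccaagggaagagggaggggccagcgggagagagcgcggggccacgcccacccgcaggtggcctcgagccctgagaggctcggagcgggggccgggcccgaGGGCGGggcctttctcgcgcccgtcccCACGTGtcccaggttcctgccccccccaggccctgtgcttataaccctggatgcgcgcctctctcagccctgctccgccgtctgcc
Odc1: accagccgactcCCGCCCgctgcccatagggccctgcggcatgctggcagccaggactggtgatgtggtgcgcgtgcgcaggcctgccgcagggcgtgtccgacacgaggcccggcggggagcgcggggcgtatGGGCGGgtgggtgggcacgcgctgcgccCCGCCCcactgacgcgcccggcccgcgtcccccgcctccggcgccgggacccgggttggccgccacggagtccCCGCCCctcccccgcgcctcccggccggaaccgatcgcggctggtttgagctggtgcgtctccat
Gatm: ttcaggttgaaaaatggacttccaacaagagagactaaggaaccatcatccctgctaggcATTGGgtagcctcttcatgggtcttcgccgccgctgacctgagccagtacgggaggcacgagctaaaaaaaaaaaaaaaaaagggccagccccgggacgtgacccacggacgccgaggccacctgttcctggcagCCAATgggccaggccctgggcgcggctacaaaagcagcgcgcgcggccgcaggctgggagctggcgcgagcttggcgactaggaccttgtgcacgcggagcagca
Oat: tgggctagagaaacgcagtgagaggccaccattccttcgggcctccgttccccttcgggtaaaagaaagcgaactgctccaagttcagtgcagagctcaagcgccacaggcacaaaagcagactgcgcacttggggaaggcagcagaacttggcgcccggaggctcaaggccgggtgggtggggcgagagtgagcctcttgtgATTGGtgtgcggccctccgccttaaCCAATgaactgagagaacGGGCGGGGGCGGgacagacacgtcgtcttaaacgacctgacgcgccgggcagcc
The GC box letters occurred in 4 of the 6 members' promoters in the table (Ass1, Odc1, Oat and Gamt) and in 35.7% of 32851 promoters. CCAAT occurred in 2 of the 6 (Gatm and Oat) and in 37.4% of all promoters, and CACGTG in Ass1 alone of the 6 and in 7.15% of all. TATAAA, the TATA box letters, and TGACNNNGC, the antioxidant response element letters, occurred in 0 of the 6 windows and in 13.6% and 12.4% of all promoters. The Odc1 window has 78.0% G and C and that of Ass1 74.0%, as compared with 61.7% for Oat, 60.7% for Gatm and a median of 52.7% over all promoters. No searched motif was present in all of the windows of the genes that fell, and the Ddah1 window held 0 of the 5.

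In CKD as compared with control kidneys, 6 of the 9 genes were lower and 2 were higher at an adjusted p under 0.05 (limma, Benjamini-Hochberg over 13148 genes tested), and Nos3 did not pass. Of all genes tested, 13.3% were called lower and 54.6% higher, so that the direction of the members was the less common one. The same 8 genes had no overlap between groups, and 10.5% of all genes lay wholly lower and 44.6% wholly higher. The median log2 fold change of all genes was 0.50, and that of the 9 members was −1.04. FPKM are relative to the mapped total of each library. 1 transcript, Kap, took 10.6% to 12.7% of the summed FPKM in control kidneys and 0.188% to 1.25% in CKD kidneys. The summed FPKM is corrected for transcript length, so these are not shares of the mapped total, which are unknown here. A median-of-ratios rescaling moved the median of all genes by −0.53, after which 31.0% were called lower and 27.2% higher, and quantile normalization moved it by −0.53 as well, with 25.6% lower and 23.3% higher. Under both, the 6 lower members and Arg2 kept their direction and passed the test.

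Both enzymes of the citrulline-to-arginine step were lower, and Ass1 had the largest fall of the 9 genes in the values as deposited. Ass1 was at 877, 1061, 519 and 948 FPKM in control kidneys and at 180, 54.0, 180 and 154 FPKM in CKD kidneys. The groups were far apart, with control mouse 042301 and CKD mouse 022301 the lowest of their groups. The CKD mean was 5.99-fold lower, a log2 fold change of −2.67 ± 0.35 (SE, limma adjusted p = 2.15e-05), lower than in all but 0.449% of genes. Asl, the next enzyme, which releases arginine and fumarate, was at 111, 156, 147 and 124 FPKM in control and at 56.7, 55.2, 82.3 and 65.3 FPKM in CKD kidneys. The groups did not overlap, and the fall was smaller, at 2.07-fold (log2 fold change −1.04 ± 0.16, SE, limma adjusted p = 6.96e-05). Without the 3 libraries that stood apart, the log2 fold changes were −3.05 for Ass1 and −1.11 for Asl. Ass1 shares 1240 bases at 99.5% identity with the processed pseudogene Gm5424, whose listed mean fell from 11.6 to 1.84 FPKM, so that reads of the gene and its copy may have been divided between them.

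Both enzymes of creatine synthesis were lower. Gatm was at 384, 384, 251 and 423 FPKM in control kidneys and at 139, 71.4, 85.3 and 83.4 FPKM in CKD kidneys. No CKD mouse reached the lowest control, and the mean was 3.81-fold lower (log2 fold change −1.94 ± 0.37, SE, limma adjusted p = 0.000466). Gamt, which methylates guanidinoacetate to creatine, was at 24.5, 25.8, 37.8 and 21.8 FPKM in control and at 12.2, 13.4, 21.2 and 8.66 FPKM in CKD kidneys. The highest CKD mouse, 110310, lay just under the lowest control, and the mean was 1.99-fold lower (log2 fold change −0.98 ± 0.24, SE, limma adjusted p = 0.00284). The log2 fold changes were −2.07 for Gatm and −1.03 for Gamt without the 3 libraries that stood apart. In these bulk samples, fewer cells of a type and less RNA per cell cannot be told apart, here and for every gene below.

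Of the genes that use ornithine, Odc1 was lower and Oat was higher in the values as deposited. Odc1 was at 541, 633, 208 and 568 FPKM in control kidneys and at 127, 65.2, 110 and 78.4 FPKM in CKD kidneys. Control mouse 042301 had less than the other controls yet more than any CKD mouse. The CKD mean was 5.12-fold lower (log2 fold change −2.27 ± 0.32, SE, limma adjusted p = 4.40e-05), and the log2 fold change was −2.73 without the 3 libraries that stood apart. Odc1 has near copies of at least 200 bases and 90% identity in 14 other annotated genes, mostly processed pseudogenes, so that its level rests on how shared reads were assigned.

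Oat was at 84.4, 81.0, 98.6 and 85.5 FPKM in control kidneys and at 160, 147, 125 and 154 FPKM in CKD kidneys. Every CKD mouse was above every control, and the mean was 1.68-fold higher (log2 fold change 0.74 ± 0.13, SE, limma adjusted p = 0.000245). The call was lost after median-of-ratios rescaling, at a log2 fold change of 0.12 (limma adjusted p = 0.452), and was kept after quantile normalization, at 0.93 (limma adjusted p = 0.000246), and without the 3 libraries that stood apart, at 0.87 (limma adjusted p = 1.04e-05). Relative to the median of all genes the change of Oat was 0.24 in the values as deposited, at percentile 63.3 of all genes.

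Arg2, the mitochondrial arginase, rose in every CKD mouse. It was at 7.38, 4.21, 8.57 and 4.06 FPKM in control kidneys and at 46.5, 50.7, 54.5 and 54.6 FPKM in CKD kidneys. The lowest CKD mouse was far above the highest control, and the CKD values lay close together. The mean was 8.52-fold higher (log2 fold change 2.95 ± 0.22, SE, limma adjusted p = 2.63e-07), and the log2 fold change was 2.39 after median-of-ratios rescaling, 2.503 after quantile normalization and 3.09 without the 3 libraries that stood apart. Of its 1428 exon bases, 285 overlap exons of Vti1b and 116 those of the antisense gene Gm48780, both on the opposite strand, and whether the authors' counting used strand is not given in the sources used here.

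The nitric oxide arm divided between its members. Ddah1, which breaks down methylarginines that inhibit nitric oxide synthases, was at 145, 139, 78.6 and 146 FPKM in control and at 59.1, 49.6, 51.2 and 66.3 FPKM in CKD kidneys. The groups did not overlap, although control mouse 042301 was nearer the CKD mice than the other controls were. The mean was 2.25-fold lower (log2 fold change −1.12 ± 0.19, SE, limma adjusted p = 0.00015), and the log2 fold change was −1.29 without the 3 libraries that stood apart. Nos3, the endothelial nitric oxide synthase, was at 2.07, 2.20, 2.75 and 1.49 FPKM in control and at 2.76, 2.65, 4.23 and 2.18 FPKM in CKD kidneys. These ranges overlapped, and the log2 fold change of 0.33 (95% confidence interval −0.12 to 0.78, limma adjusted p = 0.175) turned to −0.11 after median-of-ratios rescaling and −0.50 after quantile normalization. It was 0.28 without the 3 libraries that stood apart (limma adjusted p = 0.0815). Of the 4132 exon bases of Nos3, 294 overlap Atg9b and 1040 the antisense gene Gm15587, both on the opposite strand.

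**Figure D2:**
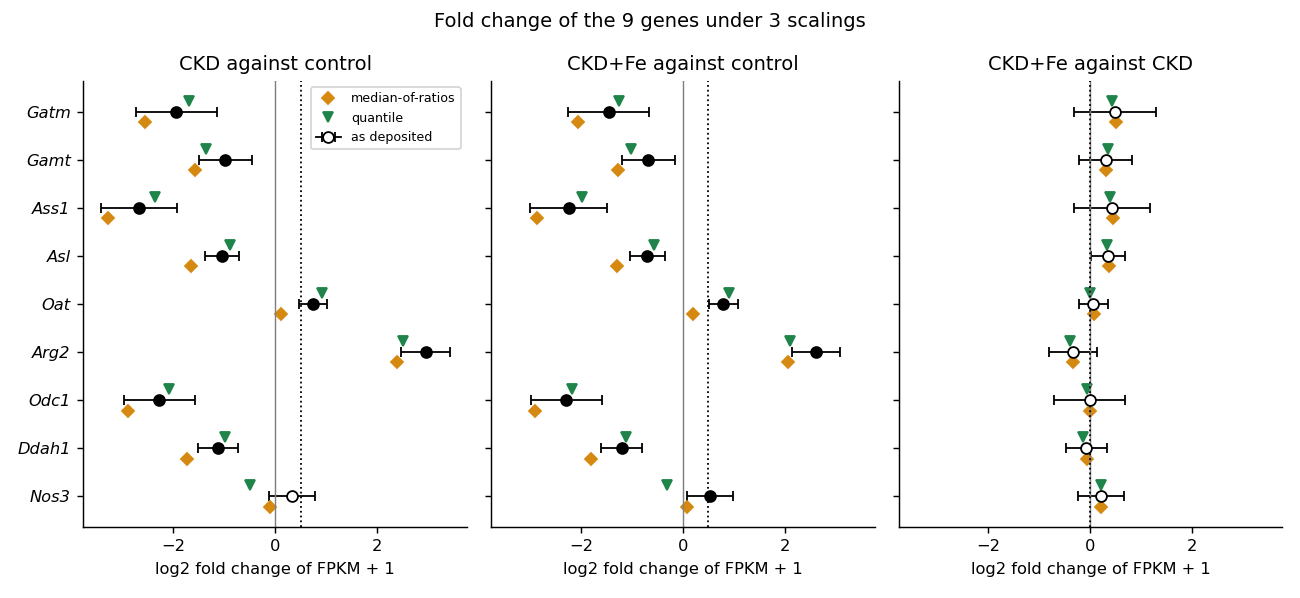
Log2 fold change of FPKM + 1 for the 9 genes in the 3 comparisons, with circles and 95% confidence intervals for the values as deposited (filled where the adjusted p was under 0.05), diamonds for median-of-ratios rescaling and triangles for quantile normalization; the dotted line is the median of all 13148 genes. In CKD against control Oat moves from 0.74 to 0.12 after median-of-ratios rescaling and Nos3 lies on either side of 0, while for CKD+Fe against CKD every interval except that of Asl (0.01 to 0.69) spans 0.

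Consecutive or competing enzymes were also compared with each other within the same kidney, since a rescaling of that kidney's values leaves their difference almost as it is. Differences of log2(FPKM + 1) between the genes of 5 pairs were compared between groups by exact two-sided permutation tests over 4 mice against 4, whose smallest p is 0.0286, and p values were adjusted over 10 tests. Ass1 exceeded Asl by 2.97, 2.76, 1.81 and 2.93 in control mice and by 1.65, −0.03, 1.12 and 1.23 in CKD mice, a change of −1.63. Odc1 exceeded Oat by 1.07 to 2.95 in control mice and lay below it in all 4 CKD mice, at −1.16 to −0.18, a change of −3.01. The groups did not overlap in either pair.

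Oat exceeded Arg2 by 3.35 to 4.10 in control and by 1.19 to 1.76 in CKD mice, a change of −2.21. Ddah1 exceeded Ddah2, its paralogue, by 2.15 to 3.72 in control mice and lay between −0.41 and 0.72 from it in CKD mice, a change of −3.11. All 4 of these pairs reached the smallest exact p of 0.0286 (adjusted 0.0714), and none passed 0.05 after adjustment. Over 10 tests, the 5 pairs of CKD against control could not pass on their own even with all at that p. The missed threshold is therefore not a result. Gatm minus Gamt changed by −0.96 with overlapping groups (exact p = 0.0857, adjusted 0.143). Without control mouse 042301 it changed by −1.29 and the groups no longer overlapped. Without the 3 libraries that stood apart all 5 differences had the same direction and no overlap, and the smallest exact p of 3 mice against 3 is 0.1.

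**Figure D3:**
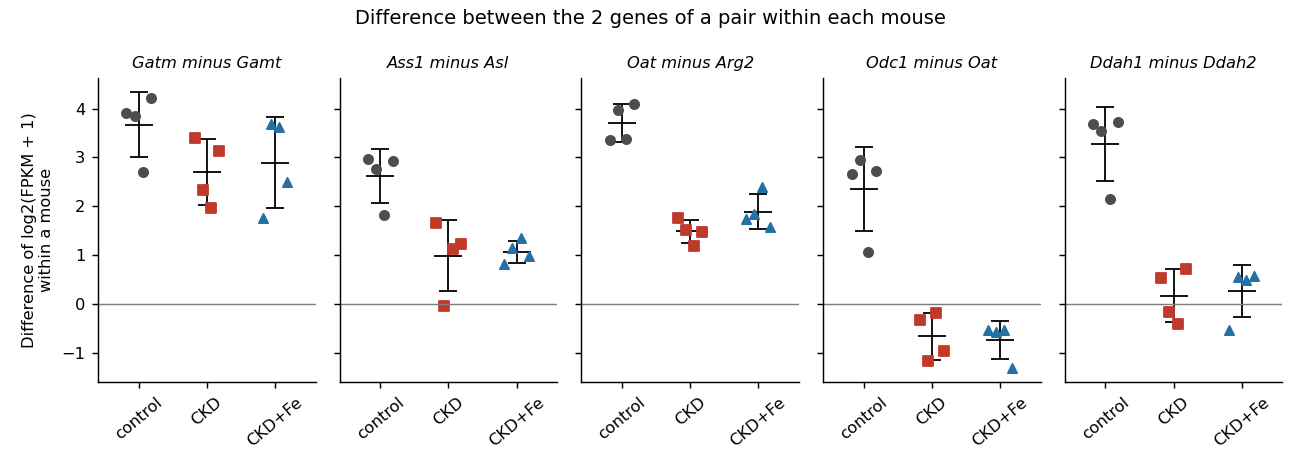
Difference of log2(FPKM + 1) between the genes of each of 5 pairs, with 1 point per mouse and black lines for the mean and SD of 4 mice; 0 means equal values on this scale. Odc1 minus Oat is positive in the 4 control mice (1.07 to 2.95) and negative in the 8 mice on adenine, and the CKD and CKD+Fe points overlap in every pair.

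Proximal tubule markers were lower in the same kidneys. Of all genes tested, 13.3% were called lower and 54.6% higher in the values as deposited. The shares were 31.0% and 27.2% after median-of-ratios rescaling and 25.6% and 23.3% after quantile normalization. Shares are not given for settings that leave out mice, so marker counts in those settings cannot be set against them. Of 18 proximal tubule markers 17 were called lower in CKD and 0 higher, with a median log2 fold change of −1.97, and the sum over the 17 with a value in every mouse was 11534 to 15324 FPKM in control and 1851 to 3722 FPKM in CKD kidneys. Slc27a2, a fatty acid transporter, fell from 2081 to 549 FPKM and Miox, an inositol oxygenase, from 2194 to 252 FPKM. All 10 tubule injury markers were called higher (median 3.80), among them Spp1, encoding osteopontin, from 521 to 15126 FPKM. All 12 macrophage markers were also higher (median 3.45), with sums of 128 to 265 FPKM in control and 1859 to 3876 FPKM in CKD kidneys, and none of these 3 lists had a member at 0 throughout. Of 11 markers of other nephron segments 4 were called lower and 0 higher. Umod, encoding uromodulin of the thick ascending limb, was at means of 1538 and 2076 FPKM in control and CKD kidneys (limma adjusted p = 0.0575), and Slc12a3, the sodium chloride transporter of the distal tubule, at 193 and 284 FPKM (limma adjusted p = 0.117). The split of these 11 was 0 higher and 6 lower after median-of-ratios rescaling, 2 higher and 5 lower after quantile normalization and 3 higher and 4 lower without the 3 libraries that stood apart. Of 9 papilla and urothelium markers 1 was called higher and 0 lower, with 2 lower after median-of-ratios rescaling and 1 lower after quantile normalization. Of 12 endothelial markers 1 was called lower. The endothelial count was 7 after median-of-ratios rescaling, 5 after quantile normalization, 2 without CKD mouse 110310 and 3 without the 3 libraries that stood apart.

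Each member was also set against the mean log2 level of the proximal tubule markers in the same mouse. Exact permutation tests were adjusted over 18 tests, and none passed 0.05 after adjustment. The 9 tests of CKD against control could not pass on their own even with all at the smallest exact p of 0.0286. This missed threshold is therefore not a result. Because that mean was lower in CKD kidneys, a gene with no change of its own is higher on this relative scale. Of 13132 genes with a value in every mouse, 95.5% lay wholly higher and 0.366% wholly lower in CKD than in control mice relative to the marker mean, with a median difference of 2.65. Of the 8 members set against these markers 4 lay wholly higher and 0 wholly lower, and their median difference was 1.07.

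Relative to that mean, Gatm differed by 0.21 (exact p = 0.171, adjusted 0.281), Odc1 by −0.12 (exact p = 0.743, adjusted 0.868) and Ass1 by −0.52 (exact p = 0.0857, adjusted 0.22) between CKD and control mice, all with overlapping groups. The relative level of Gatm was −0.45 to −0.11 in control mice and −0.27 to 0.16 in CKD mice. The overlap of Odc1 and Ass1 rested on control mouse 042301. Without it Ass1 was at 1.004 to 1.16 in control mice and at −0.23 to 0.79 in CKD mice, a difference of −0.64 (exact p = 0.0857). Odc1 was then at 0.31 to 0.42 and at −0.23 to 0.09, a difference of −0.39 (exact p = 0.0286, the smallest that 3 mice against 4 allow, unadjusted). Both genes then lay wholly lower, as did 0.411% of all genes, whereas Gatm still overlapped.

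The differences of the other members relative to the markers were 1.11 for Asl, 1.03 for Ddah1, 2.89 for Oat and 5.10 for Arg2, each without overlap (exact p = 0.0286, adjusted 0.103), and 1.18 for Gamt with overlap (exact p = 0.0857, adjusted 0.22). Asl, Ddah1 and Gamt themselves were lower in CKD kidneys, by less than the mean of the markers. Single markers spread widely, with log2 fold changes of −0.07 for Slc5a12, −0.71 for Aqp1, −1.19 for Cubn and −4.49 for Slc7a13. These 3 members therefore did not fall by less than every marker. Without control mouse 042301 Gamt was also wholly higher, at a difference of 1.44 (exact p = 0.0286, unadjusted), where 97.7% of all genes were. Nos3 relative to the mean of 12 endothelial markers was −2.97 to −2.41 in control mice and −2.28 to −2.10 in CKD mice, a difference of 0.48 (exact p = 0.0286, adjusted 0.103), where 38.1% of all genes lay wholly higher and their median difference was 0.66.

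**Figure D4:**
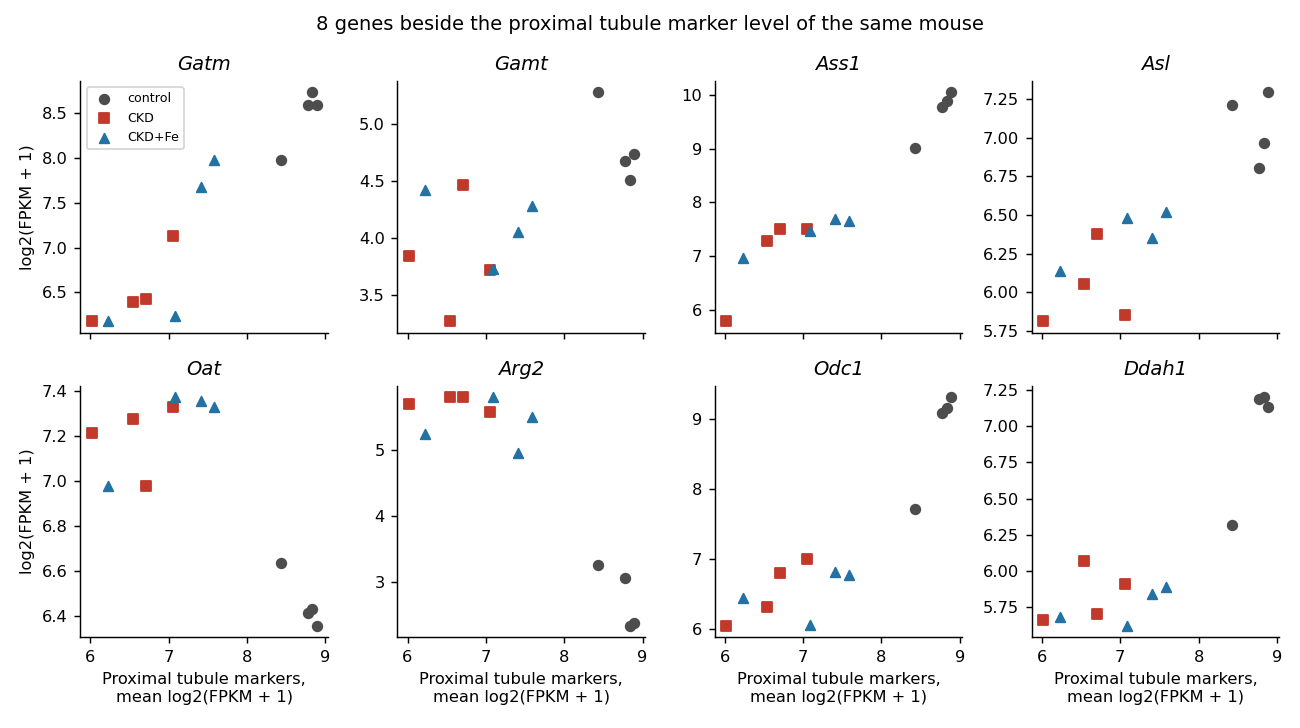
Level of 8 genes as log2(FPKM + 1) against the mean log2(FPKM + 1) of 17 proximal tubule markers in the same mouse, with 1 point per mouse. Control mice lie at marker means of 8.43 to 8.89 and mice on adenine at 6.02 to 7.58; Gatm, Ass1 and Odc1 are high where the markers are high, and Oat and Arg2 are low there.

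Odc1 is known as a transcript that is higher in kidneys of male than of female mice. All 6 genes of a list of male-high kidney transcripts were called lower in CKD (median log2 fold change −4.31), and their sum was 68718 to 92274 FPKM in control and 1204 to 7957 FPKM in CKD kidneys. Kap, the most abundant, went from a mean of 73017 to 3585 FPKM. The part of these genes in the fall of Odc1 was not tested, and sex is not given in the labels.

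The genes with the most similar profile over the 12 mice were taken by the smallest root mean square difference of standardised log2 levels, as a description. Nearest to Ass1 were its pseudogene copy Gm5424 (0.114), the phosphate transporter gene Slc34a1 (0.13) and Aldh4a1 of proline breakdown (0.145). Nearest to Gatm were Galnt11 (0.25), Tinag (0.251) and Kl (0.263), and nearest to Odc1 were Pgpep1 (0.152), Macrod2 (0.164) and Zfp706 (0.172). Nearest to Arg2 were Lox (0.134), Serpine2 (0.136) and Fstl1 (0.153), which encode a collagen cross-linking enzyme, a secreted protease inhibitor and a secreted glycoprotein.

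Asl lay nearest to Dcxr, Fah and Bckdha (0.223 to 0.254), Gamt to Coprs, Dnajc30 and Mrpl4 (0.206 to 0.226), and Ddah1 to Fhl1, 4833439L19Rik and Plekha8 (0.182 to 0.219). Oat lay nearest to Nsun7, Nipal1 and Tarm1 (0.196 to 0.2), 3 genes of low level, and Nos3 to Engase, Rrp9 and Tmcc2 (0.27 to 0.288). Among the members themselves, Ddah1 and Odc1 were the most alike (0.243), followed by Ass1 and Odc1 (0.308) and by Arg2 and Oat (0.377).

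Other genes of the pathway were described as lists. Of all genes tested, 54.6% were called higher and 13.3% lower in CKD in the values as deposited. The shares were 27.2% and 31.0% after median-of-ratios rescaling and 23.3% and 25.6% after quantile normalization. For CKD against control, shares are not given for settings that leave out mice, so list counts in those settings cannot be set against them. Of 8 tested genes of arginine transport and the urea cycle, 3 were called higher and 3 lower in CKD. The split was 3 higher and 5 lower both after median-of-ratios rescaling and without the 3 libraries that stood apart, and 3 higher and 2 lower after quantile normalization. Arg1, the cytosolic arginase known from liver and from some macrophages, was at 0.025 to 0.079 FPKM in control kidneys and at 3.95, 18.4, 5.30 and 19.0 FPKM in CKD kidneys. All CKD mice were above all controls, with a wide spread among them, and the log2 fold change on the log2(FPKM + 1) scale was 3.32 (limma adjusted p = 1.74e-05). Slc7a2, a cationic amino acid transporter, rose from a mean of 0.608 to 12.02 FPKM (log2 fold change 2.96) and Slc7a1, another one, from 1.38 to 6.91 FPKM (1.72). Slc3a1, of the tubular cystine and dibasic amino acid transporter, and Slc25a15, the mitochondrial ornithine carrier, were among the 3 that fell, with log2 fold changes of −1.10 and −1.03. Cps1, Otc, Nags and Slc25a2 were too low to be tested.

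Of 10 tested genes of nitric oxide and methylarginine metabolism, 6 were called higher and 2 lower, where 54.6% and 13.3% of all genes were. The median log2 fold change of the list was 1.202, and it was 0.73 after median-of-ratios rescaling and 0.59 after quantile normalization. Ddah2 was at 10.3, 11.02, 16.9 and 10.2 FPKM in control and at 40.7, 55.9, 68.5 and 39.8 FPKM in CKD kidneys. The groups did not overlap (log2 fold change 1.99, limma adjusted p = 1.69e-05), and the direction was opposite to that of Ddah1. The guanylate cyclase subunits Gucy1a1 and Gucy1b1, the receptor of nitric oxide, rose by 2.20 and 1.57 on the log2 scale. Agxt2, a mitochondrial enzyme that also metabolises methylarginines, fell from 60.5 to 21.8 FPKM (log2 fold change −1.42). Nos1, at means of 0.145 and 0.151 FPKM, and Nos2, at means of 0.262 and 1.04 FPKM, were too low to be tested.

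Of 15 polyamine genes, 5 were called higher and 2 lower, where 54.6% and 13.3% of all genes were. Aoc1, the diamine oxidase that breaks down putrescine, was at 2.06, 1.54, 5.39 and 1.66 FPKM in control and at 87.2, 119, 139 and 85.0 FPKM in CKD kidneys. Every CKD mouse was far above every control (log2 fold change 4.97 ± 0.27, SE, limma adjusted p = 3.53e-08). Smox, spermine oxidase, rose by 1.94 and Azin2, an antizyme inhibitor, by 1.07 on the log2 scale. The gene for putrescine synthesis was therefore lower and that for its oxidation higher in the same kidneys. After median-of-ratios rescaling the polyamine split was 4 higher and 7 lower, and after quantile normalization it was 3 higher and 4 lower, without Azin2 (limma adjusted p = 0.0785). The number called, 7 in the values as deposited, was 11 without CKD mouse 110310 and 12 without the 3 libraries that stood apart.

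Of 7 tested genes of ornithine, proline and glutamate metabolism, 3 were called higher and 3 lower, where 54.6% and 13.3% of all genes were. The split was 1 higher and 4 lower after median-of-ratios rescaling and 2 higher and 3 lower after quantile normalization. Aldh18a1, of proline synthesis, rose from 1.18 to 5.98 FPKM (log2 fold change 1.70, limma adjusted p = 4.33e-06). Aldh4a1 and Prodh, of proline breakdown, fell by 1.27 and 1.16 on the log2 scale. Of 4 tested creatine handling genes, 1 was called higher, the mitochondrial creatine kinase Ckmt1, from 46.7 to 83.3 FPKM with overlapping groups, a call lost after median-of-ratios rescaling (limma adjusted p = 0.26). A call was added for 1 more gene without control mouse 042301. The creatine transporter Slc6a8 was at 79.7 ± 15.8 FPKM in control and at 86.7 ± 15.8 FPKM in CKD kidneys (SD, n = 4), with a log2 fold change of 0.13 (95% confidence interval −0.22 to 0.48) that turned to −0.49 after median-of-ratios rescaling (limma adjusted p = 0.029).

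**Figure D5:**
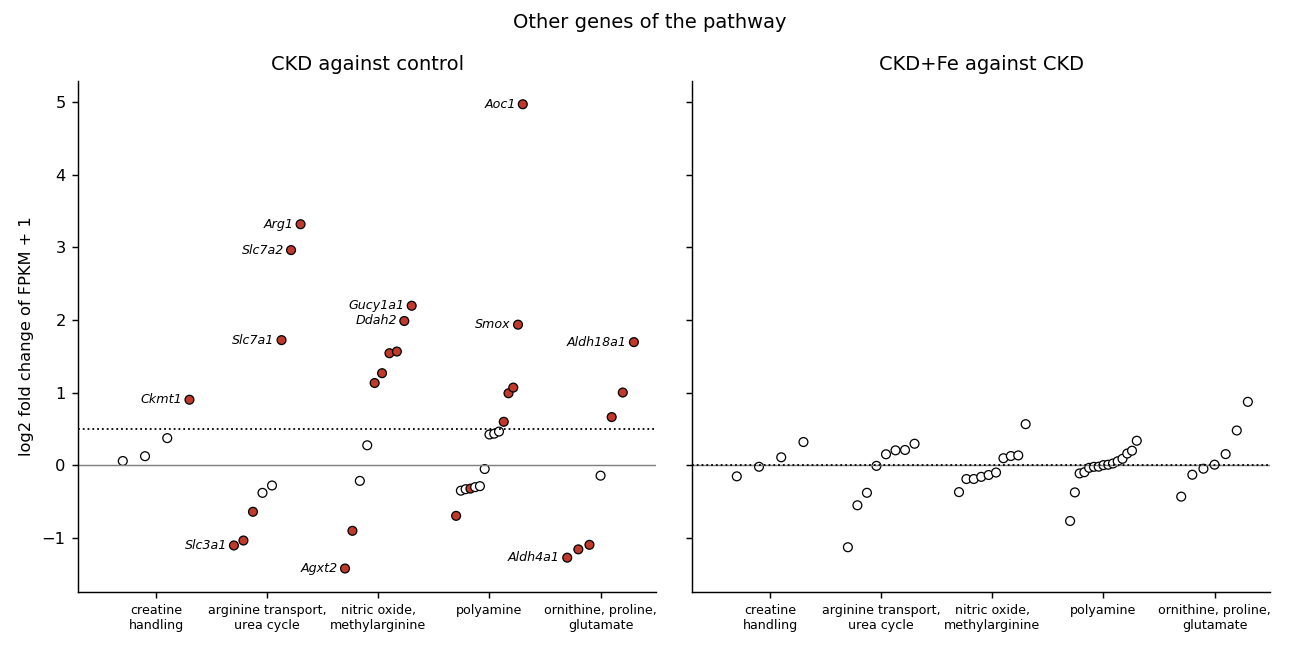
Log2 fold change of FPKM + 1 for the tested genes of 5 pathway lists, 1 point per gene, filled where the adjusted p was under 0.05; the dotted line is the median of all genes tested. In CKD against control Aoc1 (4.97), Arg1 (3.32) and Slc7a2 (2.96) lie highest and Agxt2 (−1.42) lowest, and in CKD+Fe against CKD no point is filled.

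Iron dextran changed none of the 9 genes at an adjusted p under 0.05 (limma, Benjamini-Hochberg), where 0.00761% of all genes (1 gene) were called. At an unadjusted p under 0.05, 1 of the 9 passed, as compared with 6.01% of all genes. CKD+Fe and CKD mice overlapped in all 9 genes, and 1.35% of all genes lay wholly higher and 1.09% wholly lower in CKD+Fe. A p that misses the threshold does not show that the groups were alike, so intervals are given.

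Asl was the gene that passed without adjustment. It was at 69.5, 90.6, 80.8 and 88.3 FPKM in CKD+Fe as compared with 55.2 to 82.3 FPKM in CKD kidneys. 2 CKD+Fe mice lay above every CKD mouse, and the log2 fold change was 0.35 (95% confidence interval 0.01 to 0.69, unadjusted p = 0.0437 and adjusted p = 0.824 by limma). It was 0.55 without the 3 libraries that stood apart (limma adjusted p = 0.081). Gatm was at 71.8, 251, 204 and 74.3 FPKM in CKD+Fe kidneys. CKD+Fe mice 062910 and 111710 were above every CKD mouse and the other two were within or near the CKD range of 71.4 to 139 FPKM, so that the mean of 150 ± 91.3 FPKM (SD, n = 4) describes no single mouse. The log2 fold change was 0.48 (95% confidence interval −0.31 to 1.28, limma adjusted p = 0.958), and 0.73 without the 3 libraries that stood apart (limma adjusted p = 0.324).

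The same 2 mice had the highest proximal tubule marker means, 7.58 and 7.41 on the log2 scale, as compared with 7.09 in 122320, 6.23 in 042702 and 6.02 to 7.06 in CKD mice. Relative to the marker mean, Gatm did not separate the groups (difference −0.01, exact p = 0.971). Ass1 was at 124, 201, 207 and 175 FPKM in CKD+Fe kidneys. 2 of these mice were above every CKD mouse, with a log2 fold change of 0.43 (95% confidence interval −0.32 to 1.18, limma adjusted p = 0.958). It was 0.75 without the 3 libraries that stood apart (limma adjusted p = 0.266) and 0.02 without CKD mouse 022301. No proximal tubule marker was called in the values as deposited, and the median log2 fold change of that list was 0.40. Without the 3 libraries that stood apart, 3 of the 18 were called higher and 0 lower, with a median of 0.74. In that setting, chosen after seeing the data, 0.639% of all genes were called.

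Arg2 was at 36.9, 44.0, 29.9 and 54.6 FPKM in CKD+Fe kidneys. 3 of the mice lay below every CKD mouse and mouse 122320 matched the highest CKD value, for a log2 fold change of −0.34 (95% confidence interval −0.82 to 0.13, limma adjusted p = 0.922). Odc1 was at 85.9, 108, 112 and 65.8 FPKM, inside the CKD range, with a log2 fold change of −0.02 (95% confidence interval −0.71 to 0.68). Ddah1 at −0.08 (−0.48 to 0.32) and Oat at 0.06 (−0.22 to 0.34) had narrower intervals. Gamt was at 0.30 (−0.22 to 0.82) and Nos3 at 0.20 (−0.25 to 0.65). Without the 3 libraries that stood apart, the log2 fold changes were −0.27 for Arg2, 0.10 for Odc1, −0.10 for Ddah1, 0.08 for Oat, 0.41 for Gamt and 0.16 for Nos3, with limma adjusted p values of 0.228 to 0.861. None of the 5 within-mouse pairs separated CKD+Fe from CKD, and the nearest was Oat minus Arg2 at 0.40 (exact p = 0.0857, adjusted 0.143).

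Among the 44 tested genes of the 5 pathway lists, none passed the adjusted threshold for iron in the values as deposited. At an unadjusted p under 0.05 by limma, 2 of 8 genes of arginine transport and the urea cycle passed. The counts were 3 of 7 for ornithine, proline and glutamate and 1 of 10 for nitric oxide and methylarginine. They were 1 of 15 for polyamine genes and 0 of 4 for creatine handling, as compared with 6.01% of all genes. Aoc1 was at 80.9, 66.2, 49.1 and 54.7 FPKM in CKD+Fe kidneys, all below the lowest CKD mouse at 85.0 FPKM (log2 fold change −0.76, unadjusted p = 0.0145 and adjusted p = 0.653 by limma). Prodh2, of hydroxyproline and proline breakdown, was at 15.6, 30.3, 38.3 and 27.0 FPKM as compared with 12.01 to 16.7 FPKM in CKD kidneys. 3 of its 4 CKD+Fe values were above all CKD values (log2 fold change 0.88, unadjusted p = 0.00338 and adjusted p = 0.447 by limma). Arg1 was at 2.41, 4.22, 2.51 and 7.54 FPKM, overlapping the CKD mice (log2 fold change −1.13, unadjusted p = 0.0185 and adjusted p = 0.711 by limma).

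2 alternatives called more. Without the 3 libraries that stood apart, 0.639% of all genes were called, among them Slc7a2 at −0.90 (limma adjusted p = 0.0291), Prodh2 at 1.12 (limma adjusted p = 0.0439) and Agxt2 at 0.87 (limma adjusted p = 0.0486). With limma's array weights 1.22% of all genes were called, among them Slc7a2 at −0.83 (limma adjusted p = 0.027) and Prodh2 at 1.05 (limma adjusted p = 0.043). None of the 9 members was called under either.

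In CKD+Fe as compared with control kidneys, which share the control mice with the comparison above, all 9 genes passed the test. 6 were lower, where 11.0% of all genes were called lower, and 3 were higher, where 54.4% were. After median-of-ratios rescaling 29.3% of all genes were called lower and 26.1% higher, and after quantile normalization 22.6% and 19.8%. Log2 fold changes were −2.24 for Ass1, −2.29 for Odc1, −1.45 for Gatm, −1.20 for Ddah1, −0.69 for Asl, −0.68 for Gamt, 2.61 for Arg2, 0.80 for Oat and 0.53 for Nos3. Without the 3 libraries that stood apart they were −2.30, −2.63, −1.34, −1.39, −0.57, −0.62, 2.82, 0.95 and 0.44 in the same order. CKD+Fe mouse 062910 reached the lowest control for Gatm, at 251 FPKM in both, and the other 8 genes did not overlap (9.85% of all genes lay wholly lower and 50.4% wholly higher).

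3 of these calls depended on the scaling or on 1 mouse. Nos3 was at 5.63, 2.92, 2.91 and 2.95 FPKM in CKD+Fe kidneys, where mouse 042702 stood apart, and its call (limma adjusted p = 0.0375) was lost without that mouse at a log2 fold change of 0.34 (limma adjusted p = 0.122) and turned to −0.30 after quantile normalization. It was also lost after median-of-ratios rescaling (0.09, limma adjusted p = 0.725), with no filter on low genes (limma adjusted p = 0.0561) and without control mouse 012811, 012822 or 042310 (limma adjusted p = 0.0703, 0.061 and 0.109). Oat lost its call after median-of-ratios rescaling (0.19, limma adjusted p = 0.243). Gamt (limma adjusted p = 0.0242) lost it without control mouse 042301 or CKD+Fe mouse 111710 or 122320, at adjusted p values of 0.0743, 0.0522 and 0.0788.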

How the data were processed

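Whole kidney mRNA of 12 mice (4 per group) was prepared by the authors with a stranded kit and sequenced with single-end reads of 50 cycles. The submitters' processing notes name bcl2fastq 2.19, STAR 2.5.2, Cufflinks 2.1.1 and GRCm38. The authors deposited FPKM per gene and mouse, and whether strand was used in counting is not given in the sources used here. Of the deposited values, 30 in 17 genes were marked as failed and treated as missing, none of them in the 9 genes. FPKM are not counts, so the count test of the study's methods was not run. Because FPKM are relative to each library's total, a large change in abundant transcripts moves all other values.

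Values were analysed as log2(FPKM + 1) in limma 3.58.1 (R 4.3.3, variance trend) with all 12 mice in 1 fit, over the 13148 genes that reached 1 FPKM in 4 or more mice. Tests were two-sided, with Benjamini-Hochberg adjustment over all genes tested and a threshold of 0.05. Fold changes on this scale understate the change of low genes. Single values were compared by exact permutation over 70 arrangements. P values set the difference between groups against the spread between mice. The fit was tested on simulated data. The members and lists were chosen with earlier results of these data known. From each pathway list the 3 genes with the largest change past the threshold in CKD were named, along with Arg1, Nos1, Nos2, Ddah2 and Slc6a8, and from each marker list up to 2 with the highest mean. Slc3a1, Slc25a15, Agxt2 and Prodh2 were named after their values were seen. Of 141 list entries, 1 was not matched. Alternatives were another pseudocount (0.1), other filters (none, or a mean of at least 5 FPKM), 2 rescalings, the 2 groups alone, array weights, no variance trend, an adjusted cutoff of 0.5 and leaving out each mouse, and, chosen after seeing the data, leaving out the 3 mice that stood apart. Promoter sequences are from RefSeq (GRCm38.p6), matched by symbol for 6 of the 9 genes.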

Additional observations from a re-analysis of the deposited data

Results flagged for a closer look

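In 9 of 69 sets of 4 mice, 1 mouse lay farther from the others than Dixon's 95% criterion allows. Chance alone flags about 1 in 20 independent sets. The 69 sets are not independent, because the pair differences and marker-relative values reuse the values of the 9 genes in the same mice. The 2 rates therefore cannot be read as an excess. In control mouse 042301, Ddah1 was at 78.6 FPKM, Odc1 minus Oat was 1.07 and Ddah1 minus Ddah2 was 2.15 on the log2 scale, and Odc1 relative to the proximal tubule marker mean was −0.72. In CKD+Fe mouse 042702, Oat was at 125 FPKM and Nos3 at 5.63 FPKM, Ddah1 minus Ddah2 was −0.52 and Gamt relative to the marker mean was −1.80 on the log2 scale. In CKD+Fe mouse 122320, Odc1 minus Oat was −1.31 on the log2 scale. 8 of the 9 thus belong to 2 of the 3 libraries that stood apart by limma's weights, and the cause was not tested.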

How the results depend on the processing

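No paired analysis was possible because the groups share no replicate numbers. Over the 9 genes' log2 fold changes under each alternative, 149 of 152 values kept direction and side of the threshold for CKD against control, 144 of 152 for CKD+Fe against CKD and 141 of 152 for CKD+Fe against control, and the cause of the others was not tested. Nos3 reversed in CKD against control after median-of-ratios rescaling (−0.11) and quantile normalization (−0.50), and in CKD+Fe against control after quantile normalization (−0.30). For CKD+Fe against CKD, where no member was called, signs turned for Oat after quantile normalization (−0.017). Leaving out 1 mouse gave −0.013 to 0.15 for Oat, −0.14 to 9.2e-05 for Ddah1 and −0.18 to 0.14 for Odc1, which was 0.10 without the 3 mice that stood apart. The pathway lists' count of genes called for CKD+Fe against CKD, 0 in the values as deposited, was 2 with array weights, 3 without the 3 mice that stood apart and 1 at an adjusted p under 0.5. Leaving out 1 mouse, the pairs without overlap between CKD+Fe and CKD numbered 0 to 1 (1 without CKD mouse 021320). Members without overlap relative to their markers numbered 5 to 8 for CKD against control. They numbered 8 without control mouse 042301, where 97.7% of all genes lay wholly higher and 0.411% wholly lower relative to the proximal tubule mean. They also numbered 8 without the 3 mice that stood apart, where 98% lay wholly higher and 0.525% wholly lower relative to that mean. Relative to the endothelial mean, used for Nos3, 38.5% and 61.4% of all genes lay wholly higher in these 2 settings. For CKD+Fe against CKD, members without overlap numbered 0 to 2. Those 2 were wholly lower without CKD+Fe mouse 042702, where 39.1% of all genes were, and 2 were wholly lower without the 3 mice that stood apart, where 51.5% of all genes were. Without CKD mouse 021320 it was 1, where 1.68% of all genes were. Depth in reads is unknown, so counting error could not be given, and it weighs most on low genes such as Nos3, Arg1 and Nos2.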
